A study of Mus musculus with 18 samples.

Results

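The MHC class II loading machinery was described here as 10 mouse genes chosen by symbol: H2-Aa, H2-Ab1, H2-Eb1, H2-Eb2, H2-DMa, H2-DMb2, H2-Oa, H2-Ob, Cd74 and Ciita. A gene counted as measured where at least 1 array probe was annotated to its symbol alone. That held for 9 of the 10 genes, with 1 such probe each, among 22180 genes measured in this way and 33793 probes in all. The only probe of Cd74, the invariant chain, was shared with Mir5107, so Cd74 entered no test.

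The study profiled phagocytes from the small intestine of VDTR mice, a strain in which intestinal epithelial cells carry a diphtheria toxin receptor joined to green fluorescent protein (GFP) under the villin promoter. Mice of both sexes received 2 ng per kg of diphtheria toxin into the peritoneum and were killed 4 hours afterwards, so every group shared the transgene and the toxin, and no group without toxin was analysed here. Comparing GFP-plus with GFP-minus phagocytes of 1 population asks how phagocytes that hold epithelial GFP differ from neighbours that do not. RNA (1 ng per sample) was amplified with a NuGEN whole-transcript kit and hybridised to 18 Affymetrix gene arrays.

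All cells were sorted as live CD45+ cells positive for CD11c and for surface MHC class II, so class II protein was itself a gate and cells without it were not collected. The 6 groups, with 3 arrays each, were GFP-plus and GFP-minus CD103+ CD24+ dendritic cells (CD103 DCs), GFP-plus and GFP-minus CD103+ CD11b+ CD64+ macrophages (CD103 macrophages below), and GFP-plus and GFP-minus CD11b+ CD64+ macrophages (CD11b macrophages below). The age of the mice was not given in the labels, and neither was whether the replicates came from separate mice. P-values therefore measure the spread between these samples, which may be technical.

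Class II molecules are dimers of an alpha and a beta chain that carry peptides from endosomes to the cell surface for CD4 T cells. H2-Aa and H2-Ab1 encode the 2 chains of the classical A molecule, and H2-Eb1 encodes the beta chain of the E molecule. The invariant chain fills the groove of a new dimer, endosomal proteases trim it, and the DM molecule (H2-DMa with H2-DMb) exchanges its last fragment for peptide. The DO molecule (H2-Oa with H2-Ob) binds DM and restrains it, and is best known from B cells. Ciita is the co-activator that switches these genes on. It has no DNA-binding domain of its own and is held on their promoters by the RFX, CREB and NF-Y factors, which bind the X, X2 and Y boxes.

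The DO genes were the members that tested higher in DCs than in both macrophage populations. Their proximal promoters are shown beside those of a classical alpha and a classical beta chain gene. Each is a stretch of 50 bases in GRCm38.p6, taken from RefSeq's annotation, on the strand of the gene and written 5′ to 3′. Capitals mark ATTGG, the core of the Y box, and where present TGACGTCA, an X2 box form, or AACNNATG, the end of an X box form. The ATTGG begins 43 bases before the gene start in H2-Oa, 57 in H2-Ob, 48 in H2-Aa and 59 in H2-Eb1.
H2-Oa, chr17:34092296-34092345, plus strand: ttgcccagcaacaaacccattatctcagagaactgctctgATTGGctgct
H2-Ob, chr17:34238808-34238857, plus strand: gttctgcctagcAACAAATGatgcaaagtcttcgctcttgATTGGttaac
H2-Aa, chr17:34287862-34287911, minus strand: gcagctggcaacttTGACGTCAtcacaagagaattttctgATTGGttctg
H2-Eb1, chr17:34305768-34305817, plus strand: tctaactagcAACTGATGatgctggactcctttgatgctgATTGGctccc

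Promoter windows of 250 bases before to 50 bases after a listed start were held for 7 members: H2-Aa, H2-Eb1, H2-Eb2, H2-DMa, H2-DMb2, H2-Oa and H2-Ob. H2-Ab1, Cd74 and Ciita were not searched. ATTGG, searched on both strands, lay in a window of all 7, although not in 1 of the 2 windows of H2-DMa, and 37.4% of 32851 RefSeq promoters hold it. TGACGTCA was found in H2-Aa alone among the 7, against 1.79% of all promoters. TTCNNNGAA, the interferon gamma activation element, was found in H2-DMb2 alone, against 8.3% of all promoters. A longer X box form was in none of the 7 and in 0.0852% of promoters. AACNNATG followed on the same strand by ATTGG, with 15 to 30 bases between them, stood in H2-Eb1 and H2-Eb2 (gap of 22 bases in each), H2-DMb2 (23 bases) and H2-Ob (20 bases), and not in H2-Aa, H2-DMa or H2-Oa. It occurred in 0.128% of promoters on either strand. This spacing was chosen after the promoters of the members had been seen, and AACNNATG alone lay in 8.86% of promoters. These matches describe letters in a window and locate no bound factor.

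The deposited values are log2 expression with each probe's own median over the 18 arrays subtracted. The log base is taken as 2, from the range of the values, so a value of 1 means 2-fold above that probe's median. Neither a gene's absolute level nor the order of levels between genes can be read. A gene was called changed where the limma Benjamini-Hochberg adjusted p over all 22180 genes was under 0.05. Counts at an unadjusted p under 0.05 are also given for members and markers. The share of all genes at that level was not counted, so these counts show no excess. Arrays differed in quality: limma array weights ran from 0.352 to 2.52, and the 4 lowest were GFP-plus CD103 DC replicate 1, GFP-plus CD103 macrophage replicate 1, GFP-minus CD103 macrophage replicate 2 and GFP-minus CD11b macrophage replicate 1. The sorted identities were visible in the markers. Of 9 measured DC markers 7 were higher in CD103 DCs than in CD103 macrophages and 6 than in CD11b macrophages, and all 11 measured macrophage markers were lower in both comparisons. Of all 22180 genes, 576 and 482 were called higher against CD103 and CD11b macrophages, and 1182 and 1318 lower. Itgae and Cd24a of the DC list, and Fcgr1 and Itgam of the macrophage list, are genes of sort markers. Their calls are thus no separate sign of identity. Because the values are centred, it cannot be read whether a marker is at background.

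**Figure D1:**
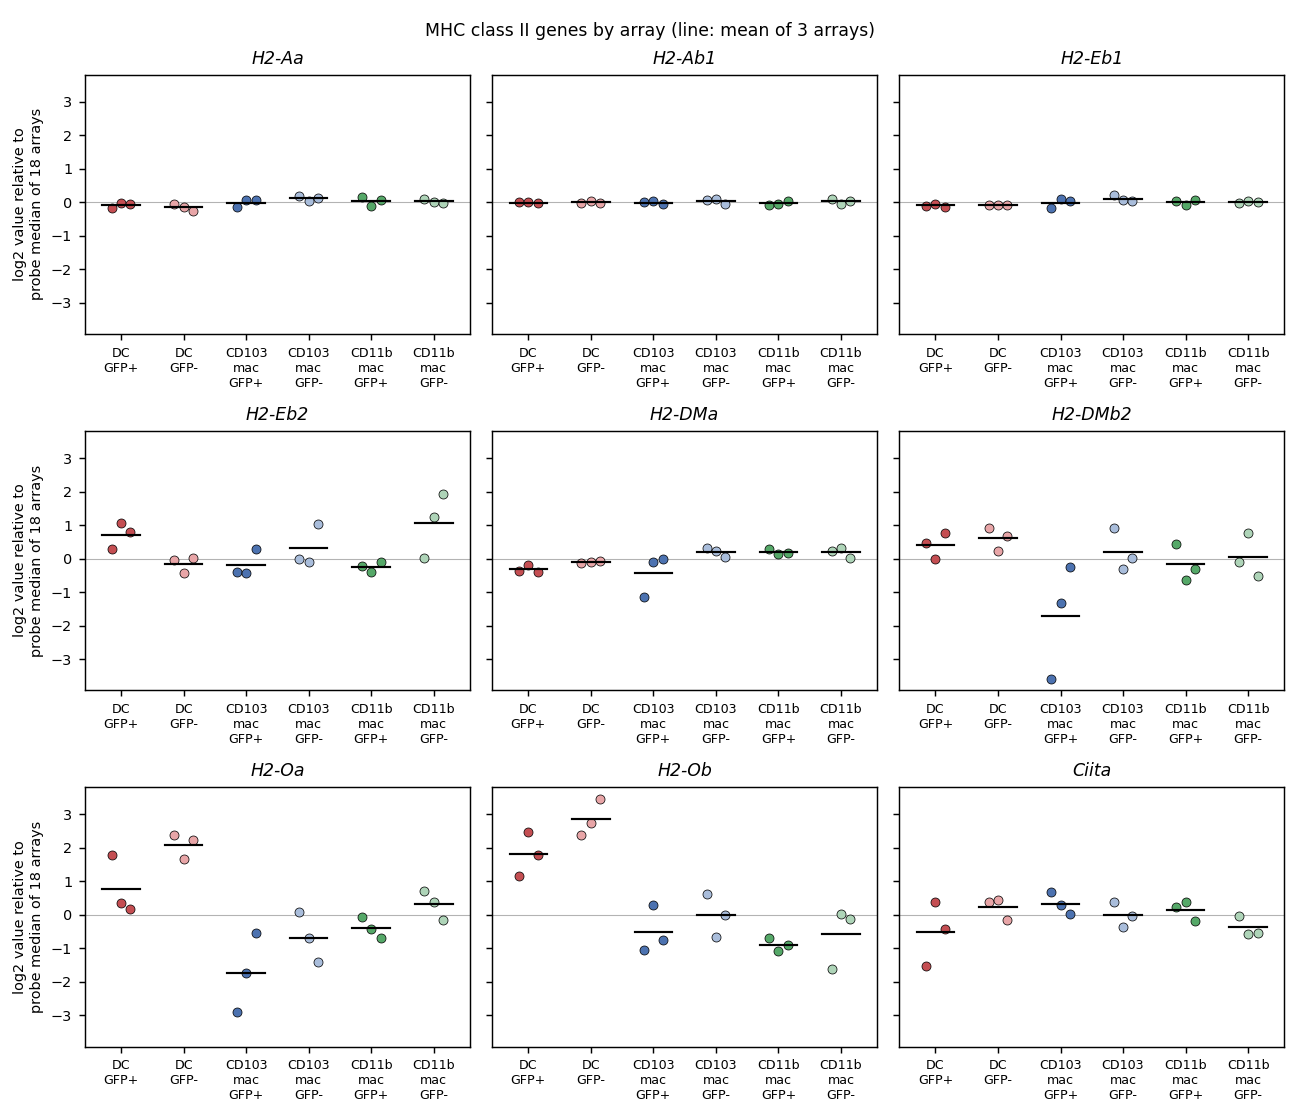
Log2 value of each of the 9 measured genes relative to its probe's median (vertical axis) on every array, by group, with a line at the mean of 3 arrays. H2-Oa and H2-Ob stand highest in the DC groups, whereas H2-Ab1 keeps between -0.08 and 0.11 throughout.

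The DO genes H2-Oa and H2-Ob were the class II members that were called higher in DCs than in both macrophage populations. H2-Ob read 1.15, 2.47 and 1.79 in GFP-plus CD103 DCs, and 2.39, 2.75 and 3.46 in GFP-minus CD103 DCs. In the CD103 macrophages it read -1.05, 0.28 and -0.74 with GFP, and 0.63, -0.67 and -0.02 without. In the CD11b macrophages it read -0.70, -1.07 and -0.89 with GFP, and -1.61, 0.02 and -0.11 without. All 6 DC arrays thus lay above all 12 macrophage arrays. Averaged over both GFP gates, H2-Ob was 6.05-fold higher in CD103 DCs than in CD103 macrophages (95% interval 3.60 to 10.1, limma, Benjamini-Hochberg adjusted p = 0.00016). Against the CD11b macrophages it was 8.36-fold higher (4.98 to 14.0, limma, Benjamini-Hochberg adjusted p = 2.8e-05). In bulk RNA of sorted cells, fewer cells that express a gene and less of its RNA per cell cannot be told apart.

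H2-Oa, the DO alpha chain, read 1.80, 0.36 and 0.19 in GFP-plus CD103 DCs, and 2.37, 1.68 and 2.23 in GFP-minus CD103 DCs. The CD103 macrophages held -2.89, -1.73 and -0.55 with GFP, and 0.07, -0.70 and -1.41 without. The CD11b macrophages held -0.07, -0.41 and -0.70 with GFP, and 0.70, 0.39 and -0.15 without. The DC arrays lay above every CD103 macrophage array, but 2 of the GFP-plus DC arrays fell within the range of the CD11b macrophages. The difference in H2-Oa was 6.23-fold against CD103 macrophages (3.50 to 11.1, limma, Benjamini-Hochberg adjusted p = 0.00036). It was 2.79-fold against CD11b macrophages (1.57 to 4.96, limma, Benjamini-Hochberg adjusted p = 0.028). The CD11b macrophage comparison was close to the threshold: with single arrays left out, 7 of 12 omissions ended the call, at adjusted p-values of 0.053 to 0.073. These arrays were GFP-plus DC replicate 1, GFP-minus DC replicates 1 and 3, GFP-plus CD11b macrophage replicates 2 and 3 and GFP-minus CD11b macrophage replicates 2 and 3.

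A second probe of H2-Oa, shared with BC051537 and not tested, read 0.49, 1.64 and 0.37 in GFP-plus CD103 DCs, and 1.66, 2.04 and 1.55 in GFP-minus CD103 DCs. Its group means were -0.90 and 0.16 in CD103 macrophages with and without GFP, and -0.70 and -0.15 in CD11b macrophages with and without GFP. Single GFP-minus CD103 macrophage arrays read 1.29, 0.30 and -1.10, so on the shared probe DC and CD103 macrophage arrays overlapped. Both H2-Oa probes had their highest group mean in GFP-minus DCs and their lowest in GFP-plus CD103 macrophages. GFP-minus CD103 macrophages ranked 3rd by group mean on the shared probe and 5th on the probe of H2-Oa alone.

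Against CD103 macrophages, 2 of the 9 measured members were called, both higher in DCs, where 7.93% of all genes were called in either direction and 2.6% were called higher. In the same comparison 2 of the 9 had no overlap between arrays, against 3.83% of all genes. Against CD11b macrophages, 2 of 9 were again called and higher, against 8.12% of all genes called in either direction and 2.17% higher. There the arrays of H2-Ob and H2-DMa did not overlap, against 5.05% of all genes. The median log2 difference over the 9 members was -0.02 against CD103 macrophages and -0.04 against CD11b macrophages, beside -0.02 and -0.03 over all genes. The 2 comparisons share the DC arrays.

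In the order of group means, H2-Ob was highest in GFP-minus DCs, followed by GFP-plus DCs, both CD103 macrophage groups (GFP-minus above GFP-plus) and both CD11b macrophage groups (GFP-minus above GFP-plus). Of these neighbouring steps, only that of 1.82 between GFP-plus DCs and GFP-minus CD103 macrophages separated all arrays. H2-Oa ran from GFP-minus DCs and GFP-plus DCs through the CD11b macrophages to the CD103 macrophages, and no neighbouring pair of groups was separated.

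B cells are the textbook source of DO, so their markers were read beside these genes. Of 11 measured B cell markers none was higher in DCs in either comparison, and 3 were lower in both. These were Bank1 (log2 difference -3.20 and -2.90 against CD103 and CD11b macrophages), Cd79b (-2.65 and -2.21) and Cd22 (-2.68 and -3.19), which encode signalling proteins of the B cell receptor pathway. The mean over the B cell list was -0.79 to -0.69 on GFP-plus DC arrays and -0.62 to -0.44 on GFP-minus DC arrays, against -0.10 to 0.45 on the macrophage arrays. These 3 genes carried the list's difference: the median log2 difference over the 11 markers was -0.12 and -0.15, beside -0.02 and -0.03 over all genes. Over the 18 arrays, Cr2 and Blk had SDs of 0.13 and 0.13, Fcer2a 0.18, Ebf1 0.20, Fcmr 0.22 and Pax5 0.29. Ms4a1 and Cd79a had SDs of 0.35 and 0.35, slightly above the 0.31 of the median gene. Without the 4 arrays of lowest weight their SDs were 0.15 and 0.36. The part of B cells in the DO values was not tested.

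**Figure D2:**
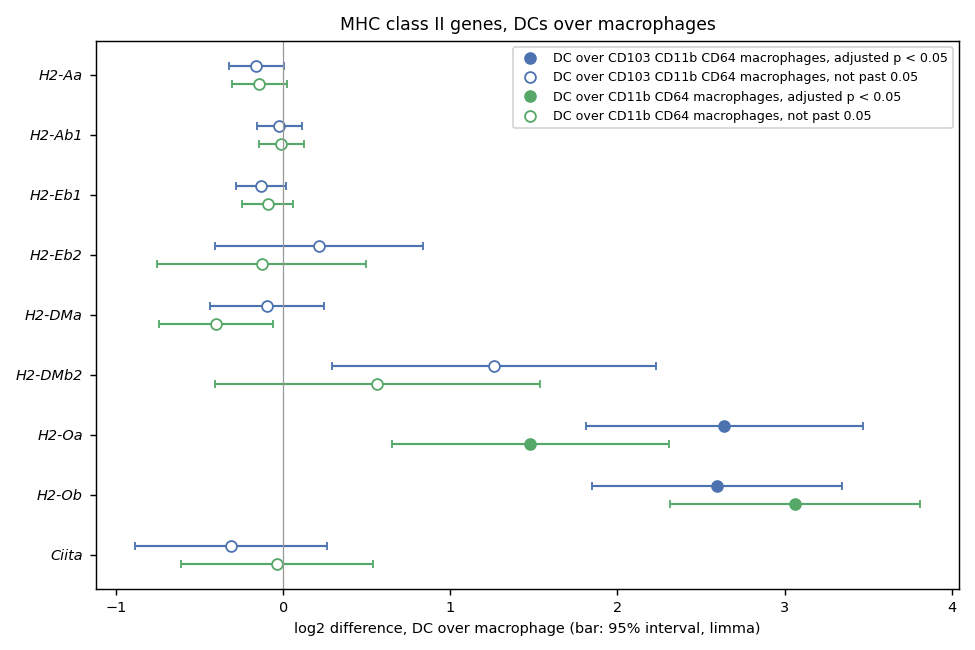
Log2 difference of each member, CD103 DCs over each macrophage population and averaged over both GFP gates, with 95% limma intervals (horizontal axis). The intervals of H2-Oa and H2-Ob lie above 0 in both comparisons, whereas those of H2-Aa, H2-Ab1 and H2-Eb1 stay between -0.32 and 0.12.

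The DM genes were not called between cell types. H2-DMa, the DM alpha chain, read -0.37, -0.18 and -0.40 in GFP-plus CD103 DCs, and -0.12, -0.11 and -0.08 in GFP-minus CD103 DCs. The CD11b macrophages read 0.29, 0.12 and 0.18 with GFP, and 0.23, 0.31 and 0.02 without. Every DC array lay below every CD11b macrophage array, by 0.40 ± 0.16 on average (log2, SE), but the test missed the threshold (limma, Benjamini-Hochberg adjusted p = 0.17). It passed in 3 of 19 alternatives, at an adjusted p of 0.012 with only the compared groups in the fit, 0.030 without the 4 arrays of lowest weight, and 0.044 with array weights. With single arrays left out it missed the threshold in all 12 fits (adjusted p of 0.16 to 0.30), as it did after quantile normalization (0.052). Against CD103 macrophages the log2 difference of H2-DMa was -0.10 ± 0.16 (SE).

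H2-DMb2, a DM beta chain gene, read 0.48, -0.02 and 0.76 in GFP-plus CD103 DCs, and 0.91, 0.22 and 0.68 in GFP-minus CD103 DCs. The CD103 macrophages read -3.58, -1.33 and -0.26 with GFP, and 0.92, -0.30 and 0.02 without. The CD11b macrophages read 0.44, -0.63 and -0.31 with GFP, and -0.09, 0.76 and -0.52 without. The arrays overlapped in both comparisons. The log2 difference was 1.26 ± 0.45 against CD103 macrophages (SE, limma, Benjamini-Hochberg adjusted p = 0.13) and 0.56 ± 0.45 against CD11b macrophages (adjusted p = 0.59). The first passed in 1 of 19 alternatives, without GFP-plus CD103 macrophage replicate 3 (1.63, adjusted p = 0.023). It was 0.80 without replicate 1 of that group (adjusted p = 0.18), 0.80 with array weights (adjusted p = 0.32) and 0.65 without the 4 arrays of lowest weight (adjusted p = 0.38). H2-DMb1, a close copy that is not a member, was at -0.31 ± 0.39 and -0.53 ± 0.39 in the same comparisons. Whether the 2 probes read each other's transcripts was not tested.

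The classical chain genes hardly varied across the 18 arrays. H2-Ab1 had a standard deviation (SD) of 0.054 on the log2 scale, and 16 of the 22180 genes had a lower one. H2-Eb1 had an SD of 0.096 and H2-Aa of 0.12, at the 1.70th and 4.55th percentile of all genes, whereas the median gene had an SD of 0.31. H2-Ab1 read 0.00, 0.01 and -0.03 in GFP-plus CD103 DCs and -0.01, 0.04 and -0.02 in GFP-minus CD103 DCs, and its macrophage values ran from -0.08 to 0.11. H2-Aa ran from -0.25 to 0.18 and H2-Eb1 from -0.16 to 0.23 over all arrays. The 95% interval of H2-Ab1, as a fold, was 0.90 to 1.08 for DCs over CD103 macrophages and 0.90 to 1.09 for DCs over CD11b macrophages.

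H2-Aa averaged lower in DCs, at a log2 difference of -0.16 ± 0.08 against CD103 macrophages and -0.14 ± 0.08 against CD11b macrophages (SE, limma, Benjamini-Hochberg adjusted p = 0.29 and 0.36). H2-Eb1 was at -0.13 ± 0.07 and -0.09 ± 0.07 (adjusted p = 0.35 and 0.56). Neither passed. A very bright probe near the ceiling of the scanner also varies little, and since centring removed the absolute signal, saturation was not tested. If these probes were saturated, their narrow intervals would set no limit on a difference between groups. The shared probe of Cd74 and Mir5107 ran from -0.13 to 0.19 over the 18 arrays, a range of the same order.

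**Figure D3:**
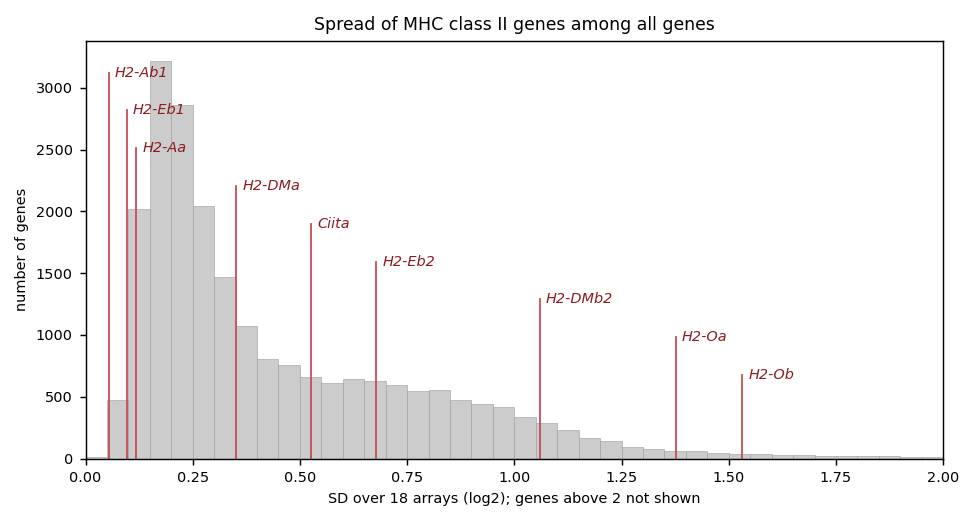
Number of genes (vertical axis) by SD over the 18 arrays on the log2 scale (horizontal axis, shown up to 2), with the 9 members marked. H2-Ab1, H2-Eb1 and H2-Aa lie at the low end, at 0.054, 0.096 and 0.12, and H2-Oa and H2-Ob lie in the upper tail, at 1.38 and 1.53.

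The other members spread more widely than the classical genes. H2-DMa had an SD of 0.35 (54.7th percentile), Ciita 0.53 (67.9th), H2-Eb2 0.68 (76.7th), H2-DMb2 1.06 (93.2nd), H2-Oa 1.38 (97.7th) and H2-Ob 1.53 (98.4th). Without the 4 arrays of lowest weight, H2-DMb2 had an SD of 0.67, at the 82.3rd percentile, and H2-Ob stayed at 1.53. The SD within groups was 0.65 for H2-Ob and 0.84 for H2-DMb2, so H2-Ob varied more over all arrays but less among replicates.

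Ciita was not called between cell types. It read -1.53, 0.39 and -0.43 in GFP-plus CD103 DCs, and 0.39, 0.43 and -0.16 in GFP-minus CD103 DCs. The CD103 macrophages read 0.67, 0.30 and 0.04 with GFP, and 0.37, -0.37 and -0.05 without. The CD11b macrophages read 0.23, 0.40 and -0.18 with GFP, and -0.04, -0.56 and -0.53 without. The groups overlapped, and the lowest value was that of GFP-plus DC replicate 1, an array of low weight. The log2 difference was -0.31 ± 0.27 against CD103 macrophages and -0.04 ± 0.27 against CD11b macrophages (SE, limma, Benjamini-Hochberg adjusted p = 0.63 and 0.97). The second changed sign after quantile normalization (0.26), with array weights (0.10) and without the 4 arrays of lowest weight (0.30).

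Of 10 measured genes acting upstream of Ciita, 3 were higher in CD103 DCs against both macrophage populations, and 1 was lower against CD103 macrophages and 2 against CD11b macrophages. Prdm1, which encodes the repressor Blimp-1 that silences a Ciita promoter, was lower by a log2 difference of -3.76 ± 0.22 and -4.64 ± 0.22 against CD103 and CD11b macrophages. Irf8, a transcription factor of CD103 DCs, was higher by 1.80 ± 0.11 and 1.52 ± 0.11. Jak2, a kinase of the interferon gamma receptor, was higher by 2.82 ± 0.57 and 3.40 ± 0.57, and Ifngr1, a chain of that receptor, by 0.63 ± 0.14 and 0.93 ± 0.14. Ifngr2, the other chain, was lower by -0.55 ± 0.12 against CD11b macrophages alone. These genes had limma Benjamini-Hochberg adjusted p-values of at most 0.0092, with Ciita itself not called. Of the 7 genes for the RFX, NF-Y and CREB factors, Creb1 alone was called, at 1.32 ± 0.32 against CD103 macrophages (limma, Benjamini-Hochberg adjusted p = 0.019).

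Most genes that prepare peptides and trim the invariant chain were lower in CD103 DCs. All 9 listed genes were measured, and against each macrophage population 7 were lower and 1 was higher in CD103 DCs. Ctsd, which encodes the aspartic protease cathepsin D, was lower by a log2 difference of -5.19 ± 0.21 and -4.87 ± 0.21 against CD103 and CD11b macrophages. Ctsl (cathepsin L) was at -3.93 ± 0.21 and -4.42 ± 0.21, Lgmn (asparagine endopeptidase) at -4.19 ± 0.28 and -4.31 ± 0.28, and Ctsb (cathepsin B) at -2.84 ± 0.17 and -2.92 ± 0.17. Ctss, the main protease of the last step of invariant chain removal in DCs, was lower by -1.32 ± 0.13 and -1.52 ± 0.13. Cst3, the gene of the secreted cathepsin inhibitor cystatin C, was the gene that was higher, by 0.93 ± 0.11 and 1.27 ± 0.11. Ifi30, a reductase for disulfide bonds in antigens, was not called (-0.0036 ± 0.20 and -0.59 ± 0.20). Ctss, Cst3 and Ifi30 were singled out after their values were seen. The genes that were called had limma Benjamini-Hochberg adjusted p-values of at most 9.5e-05.

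The mean over the whole list, with Ifi30 and Cst3 included, was -2.33 to -2.00 on GFP-plus DC arrays and -2.68 to -1.85 on GFP-minus DC arrays. On the macrophage arrays this mean was -0.13 to 0.30. The median log2 difference of the whole list was -1.64 against CD103 macrophages and -2.03 against CD11b macrophages, beside -0.02 and -0.03 over all genes. Among 3 genes that act on class II at the surface, Marchf8, a ubiquitin ligase, was lower in DCs in both comparisons (-0.73 ± 0.17 and -0.74 ± 0.17). Marchf1, the ligase that ubiquitinates class II in resting DCs, was lower against CD11b macrophages (-0.85 ± 0.19). These had limma Benjamini-Hochberg adjusted p-values of at most 0.016. Cd83, which opposes Marchf1, was not called in either.

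**Figure D4:**
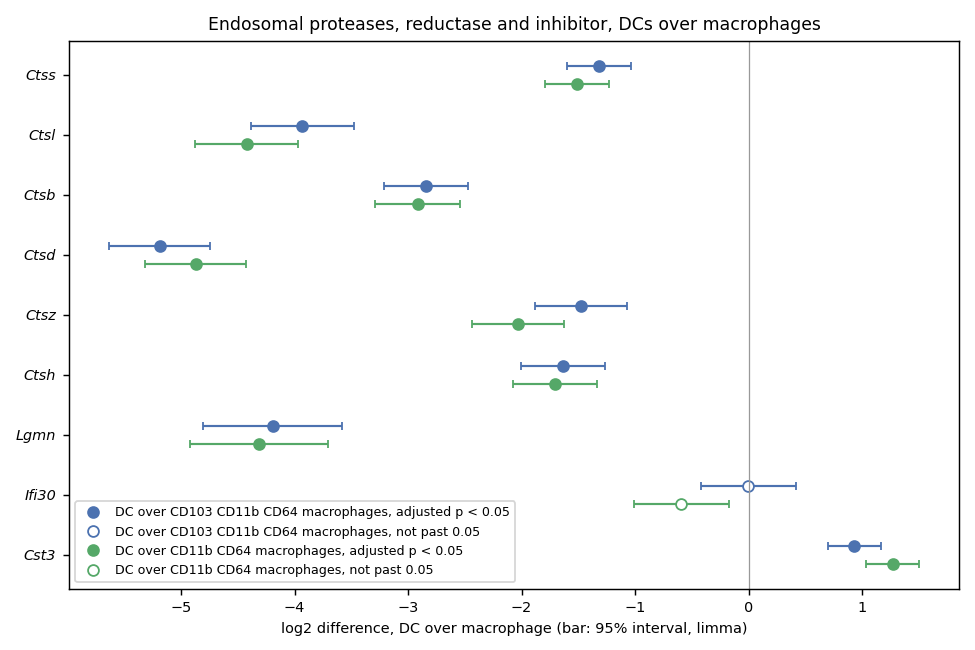
Log2 difference of the endosomal protease, reductase and inhibitor genes, CD103 DCs over each macrophage population, with 95% limma intervals (horizontal axis). Cst3 lies above 0 in both comparisons, and the 7 proteases lie below it, down to -5.19 for Ctsd.

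Between the 2 macrophage populations, averaged over GFP gates, no member was called by limma after Benjamini-Hochberg adjustment, where 0.0721% of all genes were. At an unadjusted p under 0.05 stood 1 member, H2-Oa, with a log2 difference of -1.16 ± 0.39 for CD103 over CD11b macrophages (SE, limma, Benjamini-Hochberg adjusted p = 0.67). No member separated the arrays, against 0.334% of all genes. Their remaining log2 differences ran from -0.70 for H2-DMb2 to 0.47 for H2-Ob.

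Between GFP-plus and GFP-minus DCs no member was called by limma after Benjamini-Hochberg adjustment, where 1.58% of all genes were. At an unadjusted p under 0.05 stood 2 members, a count without the share of all genes beside it. These were the DO genes. H2-Oa averaged 0.78 ± 0.88 in GFP-plus DCs and 2.09 ± 0.37 in GFP-minus DCs (SD, n = 3 each), a log2 difference of -1.31 ± 0.55 (SE, limma, Benjamini-Hochberg adjusted p = 0.26). H2-Ob averaged 1.80 ± 0.66 in GFP-plus DCs and 2.87 ± 0.55 in GFP-minus DCs, a log2 difference of -1.06 ± 0.49 (limma, Benjamini-Hochberg adjusted p = 0.32). In both genes 1 GFP-plus array overlapped the GFP-minus range. Single omissions gave -1.82 to -1.02 for H2-Oa and -1.40 to -0.74 for H2-Ob. The -1.82 was without GFP-plus DC replicate 1, an array of low weight (limma, Benjamini-Hochberg adjusted p = 0.17). Macrophage markers moved beside them, with C1qa, a complement gene, called lower in GFP-plus DCs and 10 of the 11 measured markers at negative differences (median -0.69). Their part in the result was not tested.

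Ciita was at -0.74 ± 0.38 in the same comparison. Single omissions gave -1.20 to -0.24 (limma, Benjamini-Hochberg adjusted p of 0.074 to 0.82), with -0.24 without GFP-plus DC replicate 1. H2-Eb2 separated the arrays upwards and H2-DMa downwards, against 20.1% of all genes separated in either direction. The classical genes gave narrow intervals for GFP-plus over GFP-minus DCs: 0.89- to 1.23-fold for H2-Aa, 0.87- to 1.13-fold for H2-Ab1 and 0.85- to 1.15-fold for H2-Eb1.

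GFP-plus CD103 macrophages likewise gave no member called, where 0.0541% of all genes were. They gave 2 members at an unadjusted p under 0.05 (share of all genes not counted). H2-DMb2 was at -1.93 ± 0.64 (SE, limma, Benjamini-Hochberg adjusted p = 0.31). Its lowest value, -3.58, was on GFP-plus replicate 1, the array of lowest weight, and without that array the difference was -1.01 (limma, Benjamini-Hochberg adjusted p = 0.60). Without GFP-plus replicate 3 it was -2.66 (limma, Benjamini-Hochberg adjusted p = 0.13). H2-DMa read -1.15, -0.09 and -0.02 in GFP-plus and 0.31, 0.24 and 0.04 in GFP-minus CD103 macrophages. It separated the arrays, as did 13% of all genes in either direction, at a log2 difference of -0.62 ± 0.22 (SE, limma, Benjamini-Hochberg adjusted p = 0.38). Its lowest value was again on GFP-plus replicate 1, and without that array the difference was -0.25 (limma, Benjamini-Hochberg adjusted p = 0.66). Without GFP-plus replicate 3 it was -0.82 (limma, Benjamini-Hochberg adjusted p = 0.26). H2-Oa was at -1.04 ± 0.55, at -0.46 without GFP-plus replicate 1 and at -1.63 without GFP-plus replicate 3. DC and T cell markers moved beside them. The mean of the DC list ran from -1.30 to -0.47 on GFP-plus and from -0.22 to 0.88 on GFP-minus CD103 macrophage arrays, and that of 5 T cell markers from -0.38 to 0.59 and from 0.62 to 2.56 on those arrays. None of these markers was called by limma after Benjamini-Hochberg adjustment, with 7 of 9 and 2 of 5 at an unadjusted p under 0.05. Their part in the result was not tested.

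In the CD11b macrophages no member was called between GFP gates, where 0.0271% of all genes were. H2-Eb2 stood at an unadjusted p under 0.05. Its product is a beta chain related to that of H2-Eb1 whose partner and role are less established. It read -0.22, -0.40 and -0.10 in GFP-plus and 0.01, 1.24 and 1.93 in GFP-minus CD11b macrophages. The GFP-plus arrays lay below the GFP-minus arrays, at -1.30 ± 0.41 (SE, limma, Benjamini-Hochberg adjusted p = 0.57), and 15.9% of all genes separated these groups.

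In DCs H2-Eb2 read 0.29, 1.05 and 0.79 with GFP, against -0.03, -0.43 and 0.01 without, a log2 difference of 0.86 ± 0.41 (SE, limma, Benjamini-Hochberg adjusted p = 0.34). In CD103 macrophages it read -0.40, -0.43 and 0.29 with GFP, against -0.01, -0.09 and 1.03 without, and these overlapped. The GFP effect on H2-Eb2 in DCs exceeded the mean effect in both macrophage populations by 1.76 ± 0.50 on the log2 scale (95% interval 0.67 to 2.84, SE). This missed the threshold (limma, Benjamini-Hochberg adjusted p = 0.097), and no member was called, where 1.33% of all genes were. Ciita was the other member at an unadjusted p under 0.05, at -1.18 ± 0.46 (limma, Benjamini-Hochberg adjusted p = 0.21). It passed in 1 of 24 alternatives, without GFP-plus DC replicate 2 (-1.64, adjusted p = 0.044). Other single omissions gave differences as small as -0.68, and omission of the 4 arrays of lowest weight gave -0.59 (limma, Benjamini-Hochberg adjusted p = 0.44). An F-test of the GFP effect over the 3 populations called no member, where 0.361% of genes were called. The smallest limma Benjamini-Hochberg adjusted p was that of H2-Eb2, at 0.21, and it alone had an unadjusted p under 0.05.

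Epithelial markers were read beside the GFP comparisons, since the GFP came from epithelial cells. The mean over 12 such markers was 0.24 to 0.46 on GFP-plus and -0.26 to 0.09 on GFP-minus DC arrays. It was -0.04 to 0.58 and -0.29 to 0.05 on GFP-plus and GFP-minus CD103 macrophage arrays, and 0.07 to 0.39 and -0.28 to -0.13 on GFP-plus and GFP-minus CD11b macrophage arrays. Fabp1 and Fabp2 weighed most in these means, with SDs of 1.43 and 1.63 over the 18 arrays. The other markers had SDs of 0.12 to 0.42. The median log2 difference over the 12 was 0.16 in DCs, 0.13 in CD103 macrophages and 0.09 in CD11b macrophages. In that order, 8, 8 and 7 of the 12 were above 0. None of the 12 was called in any population by limma after Benjamini-Hochberg adjustment, with 4, 3 and 2 of them at an unadjusted p under 0.05 in the DCs, CD103 macrophages and CD11b macrophages. Their part in the members' values was not tested. None of the genes for proteases, surface turnover, promoter factors or Ciita regulators was called between GFP gates either, with 0 to 3 genes of a list at an unadjusted p under 0.05.

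**Figure D5:**
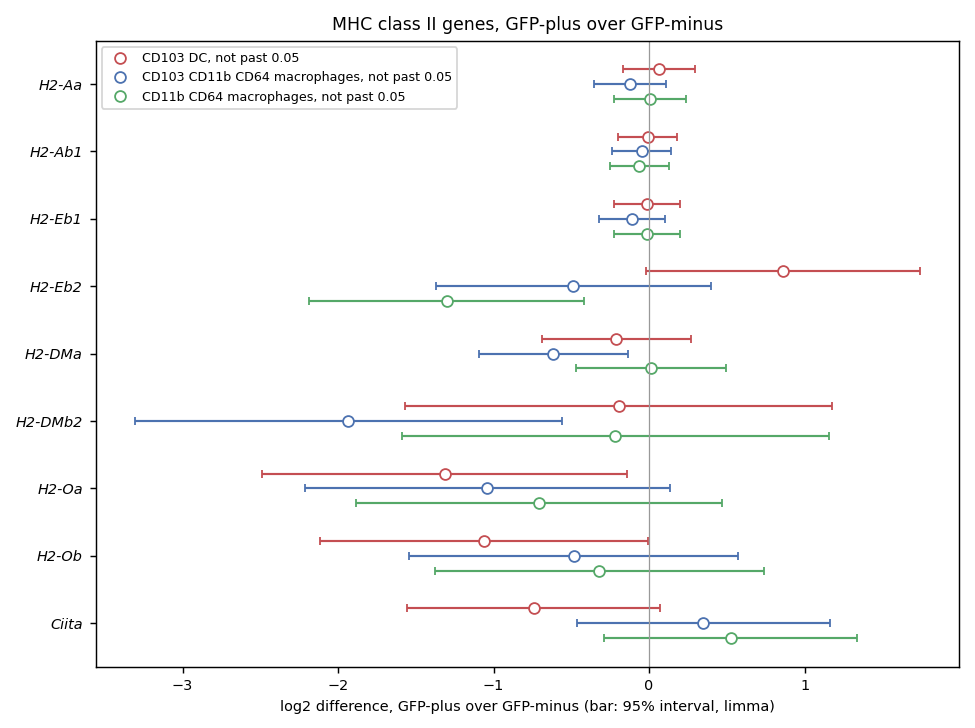
Log2 difference of each member, GFP-plus over GFP-minus, in each of the 3 populations, with 95% limma intervals (horizontal axis). H2-Eb2 lies at 0.86 in DCs and at -1.30 in CD11b macrophages, and H2-Aa, H2-Ab1 and H2-Eb1 lie between -0.12 and 0.07 in all 3 populations.

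Members were also compared with other genes by Pearson's r over the 18 arrays, which share the 6 groups, so cell type differences enter each r. H2-Ob ran closest to Cd8a (r = 0.958), Cd24a (0.948), which is one of the sort markers of the DCs, and Wdfy4 (0.944). H2-Oa ran closest to Plbd1 (0.890), Mrpl51 (0.880) and Anxa1 (0.872). H2-DMb2 was closest to Nedd8 (0.933), H2-DMa to Tmem234 (0.911), Ciita to Gldc (0.859), H2-Eb1 to A430078I02Rik (0.879) and H2-Aa to Il10ra (0.839). H2-Ab1, whose values span 0.19, was closest to the olfactory receptor gene Olfr726 (0.795), and H2-Eb2 to 1700003G18Rik (0.763). Within the members, the 5 highest values were those of H2-Oa with H2-DMb2 (0.764), H2-Aa with H2-Eb1 (0.763), H2-Eb1 with H2-DMa (0.707), H2-Oa with H2-Ob (0.678) and H2-DMa with H2-DMb2 (0.619), whereas H2-Aa and its partner chain H2-Ab1 gave 0.22. GFP-plus CD103 macrophage replicate 1, the array of lowest weight, held the lowest value of H2-Oa, H2-DMb2, H2-DMa and H2-Eb1. The part of that array in these r values was not tested.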

How the data were processed

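RNA from 6 sorted groups was measured on 18 arrays, 3 per group, grouped by the sample titles. In the deposited table, 33793 probes have log2 values from which the probe's median was subtracted, as a check of the table showed. How the authors summarised and normalized the arrays is not given in the sources used, and log base 2 was taken from the range of the values. RNA cleanup, amplification and labelling follow the labels' protocols. Of the probes, 23521 had 1 gene symbol, 1814 several and 8458 none, and probes with 1 symbol were averaged per gene (1082 genes), leaving 22180.

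The model, with a mean for each group and all arrays, was fitted with limma 3.58.1 in R 4.3.3 (12 residual and 2.09 prior degrees of freedom). Tests were two-sided at a Benjamini-Hochberg adjusted p of 0.05 over all genes. The procedure was tested on simulated data. Alternatives were quantile normalization, subtraction of column medians, array weights, single probes, the compared groups only, a replicate block, each array left out, and omission of the 4 arrays of lowest weight, the last chosen after seeing the data. Quantile normalization was not used in the main fit, since it forces the same distribution on every centred array. The number of arrays limits the precision. Members, marker lists and pathway lists were chosen with earlier results of these data known. Named genes are all members, up to 4 called genes of a list with the smallest p, and for likeness the genes of highest r. Genes named outside this rule include Ctss, Cst3, Ifi30, Cd83, Ifngr2, Fabp1, Fabp2 and the B cell markers that were not called.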

Additional observations from a re-analysis of the deposited data

Results flagged for a closer look

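H2-Eb2, a class II beta chain gene, had GFP differences of opposite sign in DCs and in CD11b macrophages. All 3 GFP-plus DC arrays lay above all 3 GFP-minus DC arrays (0.29 to 1.05 against -0.43 to 0.01). All 3 GFP-plus CD11b macrophage arrays lay below their GFP-minus counterparts (-0.40 to -0.10 against 0.01 to 1.93). This opposite separation is what flagged the gene, so it is no separate evidence. Of all genes, 20.1% separated the GFP gates in DCs and 15.9% in CD11b macrophages, in either direction. The test of the difference, the effect in DCs minus the mean effect in both macrophage populations, gave 1.76 on the log2 scale and missed the threshold (limma, Benjamini-Hochberg adjusted p = 0.097, range over 24 alternatives 0.030 to 0.22). It passed in 4 of the 24: with array weights, with the replicate block, without the 4 arrays of lowest weight and without GFP-minus CD11b macrophage replicate 1.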

How the results depend on the processing

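Over all alternatives, H2-Ob was higher in DCs in 19 of 19 against each macrophage population and H2-Oa in 19 of 19 against CD103 macrophages, all past the threshold, whereas H2-Oa against CD11b macrophages passed in 12 of 19. Single arrays left out gave 2 to 3 members called against CD103 macrophages and 1 to 2 against CD11b macrophages, and no alternative called a member in the GFP comparisons within a population or between the macrophage populations. Of the alternative values of single members, 1023 kept direction and side of the threshold, 9 gained a call, 7 lost one and 41 changed sign, and none of those 41 was called. In the comparison of GFP effects, 1 member, H2-Eb2, was called with array weights (1.94), with the replicate block (1.76, adjusted p = 0.048) and without the 4 arrays of lowest weight (2.27). With single arrays left out 0 to 1 member was called there: H2-Eb2 without GFP-minus CD11b macrophage replicate 1 (2.02) and Ciita without GFP-plus DC replicate 2 (-1.64). The labels do not say that replicate numbers pair the samples, and r of the deviations from group means was over 0.1 in 13 of 45 same-numbered pairs (-0.17 to 0.34), short of every pair. Pairs of different number ran from -0.36 to 0.29. As a hint from the data and not the design, 11 of 18 arrays correlated best with an array of their own number. That count was set against no reference. The block moved the genes called there to 473, against 295.

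Counts over all genes moved more. For GFP in DCs, 351 genes became 48 after quantile normalization, 85 with the compared groups only and 118 to 711 with single arrays left out. For GFP in CD103 macrophages, 12 became 62 after quantile normalization, 95 with array weights, 0 with the compared groups only, 30 without the 4 arrays of lowest weight and 11 to 60 with single arrays left out. For GFP in CD11b macrophages, 6 became 22 after quantile normalization, 53 with array weights and 0 to 34 with single arrays left out. Between macrophage populations, 16 became 33 after quantile normalization, 29 with array weights, 3 with the compared groups only and 11 to 42 with single arrays left out. For the comparison of GFP effects, 295 became 50 after quantile normalization, 681 with array weights and 122 to 728 with single arrays left out. Quantile normalization also moved the split of higher against lower calls, to 24 and 24 from 72 and 279 for GFP in DCs, to 20 and 42 from 6 and 6 in CD103 macrophages, to 25 and 8 from 14 and 2 between macrophages, and to 16 and 34 from 40 and 255 for the comparison of GFP effects.

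Signs of single members changed as follows. After quantile normalization these were H2-Eb1 for GFP in DCs (0.018), H2-Ab1 for DCs over CD103 and over CD11b macrophages (0.0030 and 0.023), Ciita for DCs over CD11b macrophages (0.26), and H2-Oa and H2-Ob in the comparison of GFP effects (0.091 and 0.25, against -0.44 and -0.66 before it). With array weights they were H2-DMa for GFP in CD11b macrophages (-0.0075) and in the comparison of GFP effects (-0.016), and H2-Ab1 and Ciita for DCs over CD11b macrophages (0.0061 and 0.10). Without the 4 arrays of lowest weight they were H2-Ab1 and Ciita for DCs over CD11b macrophages (0.0041 and 0.30) and H2-DMa in the comparison of GFP effects (-0.088), and with column medians subtracted H2-Ab1 for DCs over CD11b macrophages (0.0076). With single arrays left out, values crossed 0 for GFP in DCs in H2-Ab1 (-0.023 to 0.011), H2-Eb1 (-0.044 to 0.0057) and H2-DMb2 (-0.39 to 0.015), and for GFP in CD11b macrophages in H2-Aa (-0.050 to 0.082), H2-Eb1 (-0.043 to 0.025), H2-DMa (-0.071 to 0.075) and H2-DMb2 (-0.52 to 0.14). They also did for DCs over CD103 macrophages in H2-DMa (-0.28 to 0.0042), for DCs over CD11b macrophages in H2-Ab1 (-0.033 to 0.0060), H2-Eb2 (-0.39 to 0.089) and Ciita (-0.26 to 0.22), between macrophages in H2-Aa (-0.020 to 0.051) and H2-Ab1 (-0.0097 to 0.033), and in the comparison of GFP effects in H2-DMa (-0.092 to 0.19). The cause was not tested for any of these. Detection and saturation cannot be read from centred values, so limits from signal over background could not be set.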
